A study of Homo sapiens with 12 samples.

Results

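Entry into mitosis and exit from it are driven by a small set of proteins, and 10 of their genes are described here: CCNB1 and CCNB2, CDK1, PLK1, AURKA and AURKB, BUB3, MAD2L1, CDC20 and TOP2A. They were chosen by name, with earlier results of these data known. Their values are footprints on coding open reading frames (ORFs, of the types CDS, Trunc and Variant of the deposited table) inside the RefSeq gene of that name. Of the 10 genes, 8 had such an ORF, out of 6375 genes in the table with a counted coding ORF. All 8 passed the filter on low counts, among 4765 genes tested. CCNB2 and AURKA had no coding-type ORF under their names and enter no comparison.

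The data are ribosome footprints of HEK293 cells, a human embryonic kidney line grown in DMEM with serum. Cells were starved of amino acids for 1 h in a salt solution with vitamins and serum, deprived of serum for 2 h, or left in log phase, and lysed with cycloheximide, an elongation inhibitor. Gradients parted monosomes (mRNAs with a single ribosome) from polysomes (mRNAs with several), and each of the 6 groups has 2 libraries, called A and B in the table. Since the labels do not call A and B separate cultures, the p-values measure only the spread between these libraries, which may be technical.

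Cyclin B binds and activates the kinase CDK1, and this pair starts mitosis. Polo-like kinase 1 and the Aurora kinases A and B act beside it on centrosomes, spindle and kinetochores. BUB3 and MAD2L1 belong to the spindle checkpoint, which holds CDC20, the activator of the anaphase-promoting complex, until every chromosome is attached. That complex then marks cyclin B for destruction. TOP2A, topoisomerase II alpha, untangles sister chromosomes. In cycling human cells most of these genes are transcribed mainly in G2 and mitosis, through promoters with CCAAT boxes and a cell cycle homology region (CHR).

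RefSeq promoters (GRCh38.p14) were on hand for 8 of the 10 genes, in 10 windows, since CDK1 and AURKB have a pair of starts each. No window was on hand for AURKA or BUB3. The 100 bases before the annotated start are shown for 5 genes with a CCAAT box in that stretch, because the spacing of the motifs is what these promoters can be compared by. The stretch before the downstream start of CDK1, which lies inside the gene, is not shown. Capitals mark the motifs searched, none of which overlap in these windows. The CCAAT box is spelled CCAAT, or ATTGG when it lies on the other strand. The CHR was searched as TTTGAA, which reads TTCAAA on the other strand. It was also searched as TTTAAA, which reads the same on both. The windows lie at chr5:69167050-69167149 (+) for CCNB1, chr15:59105046-59105145 (+) for CCNB2, chr16:23678789-23678888 (+) for PLK1, chr1:43358881-43358980 (+) for CDC20 and chr17:40417897-40417996 (-) for TOP2A.
CCNB1: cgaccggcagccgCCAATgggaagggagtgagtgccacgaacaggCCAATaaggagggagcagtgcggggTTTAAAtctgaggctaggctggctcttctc
CCNB2: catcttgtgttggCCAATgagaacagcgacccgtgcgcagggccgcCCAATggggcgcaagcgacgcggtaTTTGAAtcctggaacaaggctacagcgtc
PLK1: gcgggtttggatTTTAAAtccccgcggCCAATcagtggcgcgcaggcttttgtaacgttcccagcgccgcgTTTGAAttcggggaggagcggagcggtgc
CDC20: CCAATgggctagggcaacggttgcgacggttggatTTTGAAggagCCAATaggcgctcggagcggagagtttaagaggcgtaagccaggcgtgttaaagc
TOP2A: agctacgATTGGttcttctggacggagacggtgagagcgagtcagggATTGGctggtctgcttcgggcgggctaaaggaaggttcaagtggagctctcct

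Within these 100 bases CCNB1 and CCNB2 have nearly the same layout. In CCNB1, CCAAT boxes begin 87 and 55 bases before the start and TTTAAA begins 30 bases before it. In CCNB2 they begin 87 and 54 bases before the start, with TTTGAA 29 bases before it. Up to 250 bases before the start, CCNB2 also has CCAAT boxes at 120 and 244 bases and TTTAAA at 193 bases, while CCNB1 has no more. PLK1 has a single CCAAT box at 73 bases and TTTGAA at 29 bases, and TTTAAA at 88 bases as well. In CDC20 the order is turned, with TTTGAA at 65 bases and the nearer CCAAT box at 55 bases. TOP2A has boxes at 93 and 53 bases and neither TTTGAA nor TTTAAA within 100 bases. The downstream start of CDK1 has boxes at 78 and 46 bases and TTTGAA at 69 and 13 bases. Within 250 bases before the start and on both strands, all 8 genes hold CCAAT and 6 of them also hold TTTGAA or TTTAAA. Over 22199 promoters of protein-coding genes, 32.7% hold CCAAT, 11.0% TTTGAA, 9.62% TTTAAA and 6.78% CCAAT together with either of the others. A match of letters is a description and not a binding site.

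The table holds 219 ORFs inside the 10 genes, of which 15 are of a coding type. Each codon was counted once, which kept 8, 1 for each gene. None has the type CDS, and only that of TOP2A starts at ATG. On hg38, the counted ORF of CCNB1 (ENSG00000134057) spans chr5:69168203-69177631 (+), starts at ATT and has 360 codons. That of CDK1 (ENSG00000170312) spans chr10:60780193-60793975 (+), starts at ATT and has 289 codons. PLK1 (ENSG00000166851) was counted over chr16:23679113-23690063 (+), 544 codons from AAG. CDC20 (ENSG00000117399) was counted over chr1:43359597-43363129 (+), 404 codons from AAG. BUB3 (ENSG00000154473) has 298 codons from CTG at chr10:123155005-123165056 (+), and MAD2L1 (ENSG00000164109) has 210 codons from GTG at chr4:120060118-120066746 (-). AURKB (ENSG00000178999) has 346 codons from AGG at chr17:8204871-8210227 (-). The counted ORF of TOP2A (ENSG00000131747), at chr17:40389519-40389617 (-), has 33 codons, so its values describe a short stretch of a long coding sequence.

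Other ORF types took a share of each gene's footprints. Upstream, internal, downstream, non-coding and orphan ORFs held 15.7% of the footprints of BUB3, the lowest share. Among the 8 genes with a coding ORF the highest shares were 88.4% for TOP2A and 36.1% for PLK1. For TOP2A, 804 of the 861.5 footprints outside its short counted ORF lay on internal ORFs. MAD2L1 had an overlapping upstream ORF (uoORF) of 255 nt from TTG with 1027.4 footprints, beside 6166.3 on its coding ORF. CCNB1 had a uoORF of 228 nt from GTG with 346.8 footprints, beside 3356.7 coding footprints. AURKA had 785.8 footprints on 10 kept ORFs of other types, and 485.6 of them lay on a uoORF of 147 nt from ATT. On that ORF 21.2 and 135.2 footprints fell in amino acid starved polysomes, 46.3 and 119.7 in serum starved polysomes, and 46 and 70.5 in log phase polysomes (A and B). CCNB2 had 748 footprints on 14 such ORFs, and the one with the most, an internal ORF of 93 nt, had 184.1. These are raw footprints from libraries of unequal depth (1493881 coding footprints in amino acid starved polysome A, 5313462 in log phase polysome A). They do not compare the conditions, and they are not set against the coding values of the other genes. The authors' ORF-calling p-value was 0.911 for the uoORF of MAD2L1, 0.893 for that of CCNB1 and 0.881 for that of AURKA. It was 0.819 for the internal ORF of CCNB2, so none of the ORFs just named is a confident call. CCNB2 also had a downstream ORF of 108 nt from ATC with 151.6 footprints, and its ORF-calling p-value was 8.68e-07. Whether the footprints of any of these ORFs came from another reading frame was not tested. RefSeq names 7 pseudogenes after 6 of the members (AURKA, AURKB, BUB3, CCNB2, CDC20 and MAD2L1). Whether reads were divided between them was not tested.

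Coding footprints numbered 119947 to 346200 in the monosome libraries and 1493881 to 5313462 in the polysome libraries. The members other than TOP2A had 10.5 to 106.9 footprints each in a monosome library and 166.8 to 3121.9 in a polysome library, so their monosome values carry far more counting error. A footprint count depends both on how much mRNA there is and on how heavily it is translated, and mRNA abundance was not analysed here. In bulk cells, fewer mitotic cells and less RNA per cell cannot be told apart. Of the markers of this line, NEFM (368 to 6749 counts per 1000000 coding footprints, CPM), NEFL and VIM were present, KRT8 was at 0 to 5.78, and 5 others had no coding ORF under their names. ALB, PTPRC, HBB and COL3A1, markers of other cell types, had none either, and COL1A1 was at 0 to 9.88.

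By its median level per length, BUB3 stood highest in both fractions. The level, as CPM per kilobase of the counted ORF (RPKM), had a median of 867 over the 6 polysome libraries for BUB3 (374 to 1344). MAD2L1 followed at 641 (194 to 985) and CDK1 at 311 (70.7 to 614). AURKB had 188 (52.7 to 307), CDC20 had 184 (37 to 334), PLK1 had 144 (38.7 to 186) and CCNB1 had 142 (34.3 to 490). Over the 6 libraries each gene overlapped in range with the next in this order. Within each polysome library, though, BUB3, MAD2L1, CDK1 and AURKB kept this order. BUB3 did not overlap AURKB, CDC20, PLK1 or TOP2A, and MAD2L1 did not overlap PLK1 or TOP2A. TOP2A came last at 56.5 (22.1 to 122), on 8.2 to 31.4 footprints a library.

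In monosomes the order was partly different. BUB3 led again with a median of 347 (279 to 509) RPKM, though in log phase monosome B AURKB lay above it, at 289 against 279. AURKB was next at 178 (98 to 289), ahead of MAD2L1 at 163 (118 to 260.4), CDK1 at 150 (90.9 to 177) and CCNB1 at 138 (96.4 to 184). PLK1 had 97.7 (84.3 to 126) and CDC20 76.8 (69.2 to 118). TOP2A had 49 (0 to 219.6), resting on 0 to 6.6 footprints. Each gene overlapped with the next in this order too.

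**Figure D1:**
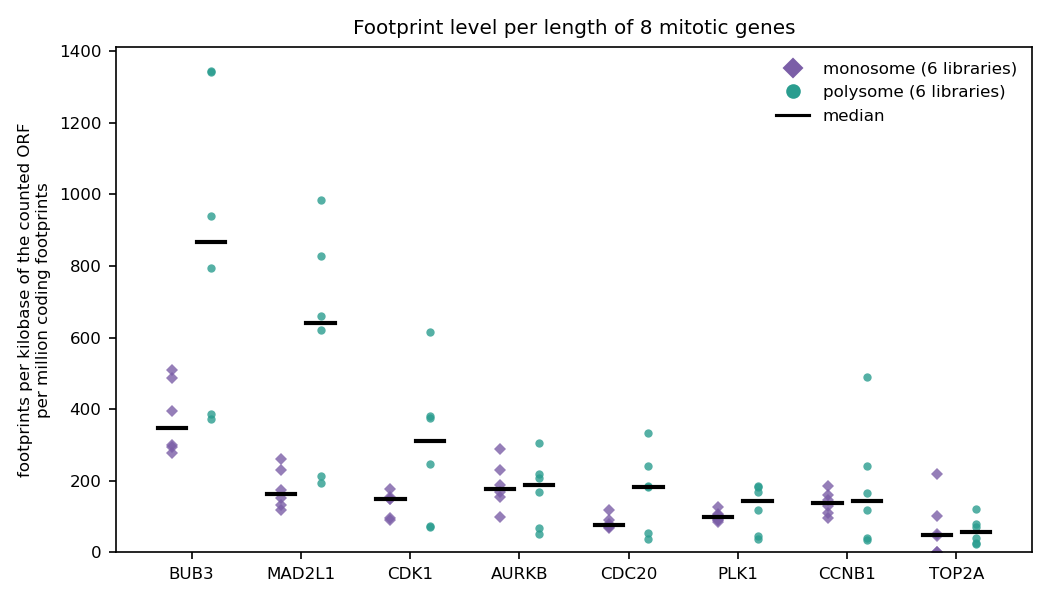
Level in RPKM (y; CPM per kilobase of the counted ORF) for 8 mitotic genes (x, ordered by polysome median), with 6 monosome libraries (diamonds) left of 6 polysome libraries (circles) and black bars for medians. BUB3 has the highest median in both fractions, 347 in monosomes and 867 in polysomes, and in polysomes each gene overlaps in range with the next. Within each polysome library BUB3, MAD2L1, CDK1 and AURKB keep this order.

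The members' levels in polysomes were higher after amino acid starvation. Summed over the 8 genes, they took 0.283% and 0.392% of the coding footprints in amino acid starved polysomes (A and B), against 0.0746% and 0.206% in log phase polysomes. The ratio was 3.80 within letter A and 1.90 within letter B. Serum starved polysomes had 0.0777% and 0.277%, ratios of 1.04 and 1.35 to log phase. In monosomes the share lay between 0.0936% and 0.137% in all 6 libraries. The letters also parted the polysome libraries: B over A was 1.38 after amino acid starvation, 3.57 after serum starvation and 2.76 in log phase. In serum starvation and log phase this letter ratio was larger than the starvation ratio of 1.90 within letter B, and its source was not tested.

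**Figure D2:**
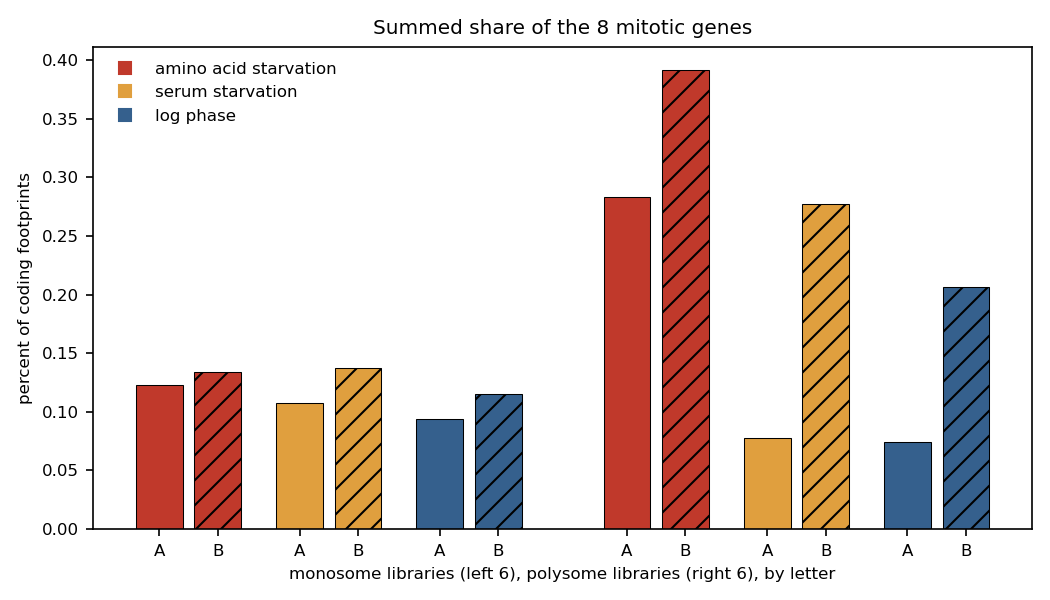
Percent of each library's coding footprints that fell on the 8 mitotic genes together (y), for amino acid starvation, serum starvation and log phase, in monosomes (left) and polysomes (right); hatched bars are library B. Monosome bars lie between 0.0936 and 0.137%, and the polysome bars of serum starvation and log phase are low in A and higher in B.

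The first test asked which members changed in polysomes after amino acid starvation. Without a term for the letter, 0 of 8 members passed an adjusted p of 0.05 (Benjamini-Hochberg over all genes, edgeR quasi-likelihood test), and 0.00% of the 4765 genes did. With the letter as a replicate block 4 of 8 passed, all higher, against 10.1% of all genes in either direction and 5.14% higher. The 4 were CCNB1, CDK1, CDC20 and AURKB. All 8 fold changes were above 0 in both fits, with a median log2 change of 1.06 without the block and 1.13 with it, beside -0.10 and -0.08 over all genes tested. With library-size scaling the all-gene median with the block was 0.24, and all 8 members stayed above 0 there as well.

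CCNB1, the cyclin whose destruction ends mitosis, had 179 and 529.7 CPM in amino acid starved polysomes (A and B), against 37.1 and 128 in log phase polysomes. Its log2 change was 1.87 (SE 0.457, adjusted p 0.0105) with the block and 1.91 (SE 0.683, adjusted p 0.496) without it. CDK1, its kinase partner, had 326 and 533 in amino acid starved polysomes and 61.3 and 213 in log phase polysomes. Its log2 change was 1.52 (SE 0.413, adjusted p 0.0179) with the block and 1.46 (adjusted p 0.521) without it. For both genes each starved library lay above each log phase library.

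AURKB, the kinase of the chromosomal passenger complex, had 229 and 318 CPM in amino acid starved polysomes, against 54.7 and 174 in log phase polysomes. The groups did not overlap, and the log2 change was 1.14 (SE 0.367, adjusted p 0.0443) with the block and 1.06 (adjusted p 0.574) without it. PLK1, which acts in mitotic entry and in spindle assembly, had 277 and 297 in amino acid starved polysomes, against 63.1 and 193 in log phase polysomes. These groups did not overlap either, but PLK1 did not pass, at 1.06 (SE 0.389, adjusted p 0.0741) with the block and 0.97 (adjusted p 0.597) without it.

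CDC20 had 222 and 405 CPM in amino acid starved polysomes, against 44.9 and 223 in log phase polysomes. The lower starved library and the higher log phase library were level. Its log2 change was 1.21 (SE 0.397, adjusted p 0.0489) with the block and 1.07 (adjusted p 0.607) without it. BUB3 had 1199 and 1202 in amino acid starved polysomes, against 347 and 709.9 in log phase polysomes. It did not pass, at 0.95 (SE 0.393, adjusted p 0.112) with the block. MAD2L1, the checkpoint protein that binds CDC20, had 391 and 621 in amino acid starved polysomes, against 135 and 417 in log phase polysomes. The groups overlapped, and the log2 change of 0.72 did not pass (SE 0.407, adjusted p 0.258). TOP2A had 7.16 and 12.1 in amino acid starved polysomes, against 2.65 and 4.02 in log phase polysomes, on 8.2 to 31.4 footprints, and did not pass (adjusted p 0.221 with the block). Starved libraries lay above both log phase libraries for 6 of the 8 members, as they did for 21.9% of all genes tested.

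The calls of amino acid starved polysomes did not hold when single libraries were left out. Where this leaves 1 library in a group, that library is assumed to vary like those of the other groups. With the block, 0 of the 8 members passed without log phase polysome A, and 0 passed without amino acid starvation polysome A or without amino acid starvation polysome B. The log2 change of CCNB1 was then 1.65, 2.25 and 1.42, and that of CDK1 1.22, 1.50 and 1.58. For AURKB it was 0.93, 0.95 and 1.37, and for CDC20 0.77, 1.14 and 1.33, so every value stayed above 0. Which members passed also changed when a serum starved library, outside this comparison, was left out. Without log phase polysome B the call of AURKB was lost, at a log2 change of 1.40. The number of all genes called varied widely over these fits too, so the members passing cannot be read apart from it. In DESeq2 with the block, BUB3 passed (adjusted p 0.035) and CDC20 did not (adjusted p 0.0592).

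**Figure D3:**
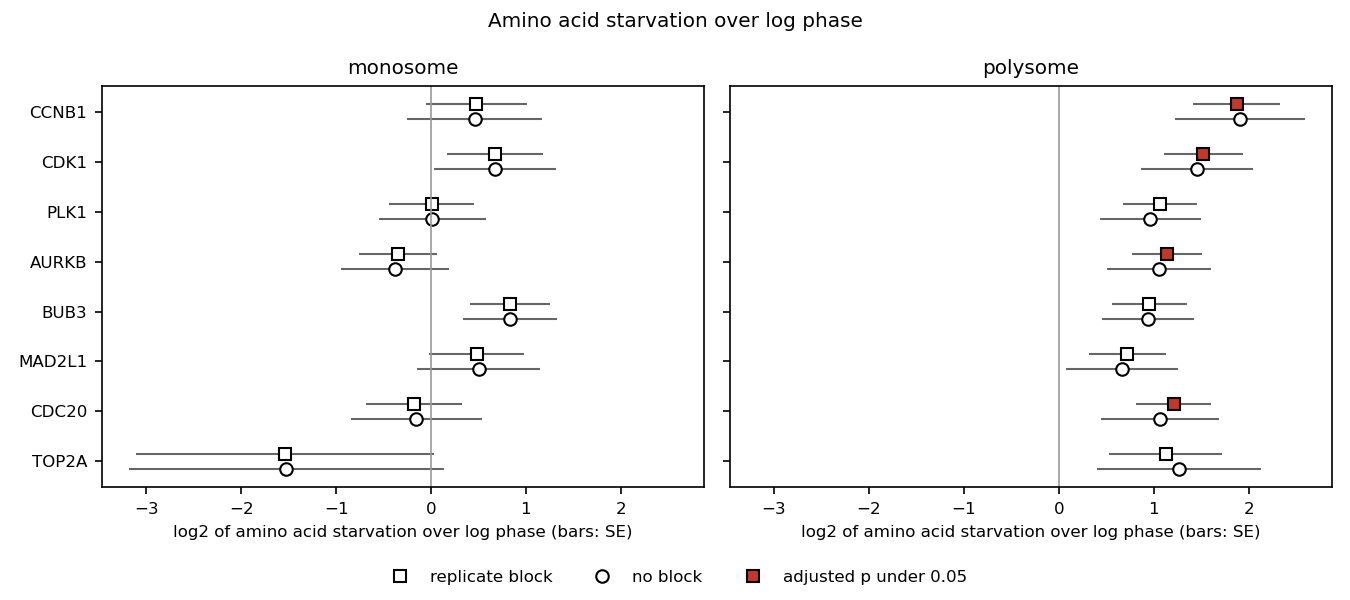
Fitted log2 change of amino acid starvation over log phase (x, bars are SE) for 8 mitotic genes (rows), in monosomes (left) and polysomes (right), with the replicate block (squares) and without it (circles); filled symbols have an adjusted p under 0.05. In polysomes every value is above 0 and CCNB1, CDK1, AURKB and CDC20 pass with the block, while in monosomes none passes in either fit.

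In monosomes amino acid starvation changed no member past the threshold, in either fit, beside 0.00% of all genes without the block and 1.03% with it. CCNB1 had 159 and 139 CPM in amino acid starved monosomes, against 104 and 118 in log phase monosomes. CDK1 had 130.2 and 129 in amino acid starved monosomes and 78.8 and 83.8 in log phase monosomes. BUB3 had 455 and 435 in amino acid starved monosomes and 263 and 249 in log phase monosomes, without overlap, and a log2 change of 0.83 (SE 0.418, adjusted p 0.475 with the block). AURKB had 161 and 194 in amino acid starved monosomes, against 176 and 300.1 in log phase monosomes, and a log2 change of -0.35 (adjusted p 0.823 with the block). The groups of AURKB overlapped. TOP2A had 0 and 1.1 raw footprints in amino acid starved monosomes, against 1.3 and 3.5 in log phase monosomes, which is too few for a size.

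Whether the monosome over polysome ratio shifted with amino acid starvation was tested as an interaction. No member passed, against 0.00% of genes without the block and 1.15% with it. The shift of AURKB was -1.49 (log2, SE 0.547, adjusted p 0.211) with the block, and in DESeq2 with the block it passed at -1.63 (adjusted p 0.0287). Its monosome over polysome log2 ratio was -0.50 and -0.71 after amino acid starvation (A and B), 0.52 and 0.15 after serum starvation, and 1.69 and 0.79 in log phase. CCNB1 and CDC20 had shifts of -1.40 (SE 0.694) and -1.39 (SE 0.638), and BUB3 and MAD2L1 had shifts of -0.12 (SE 0.571) and -0.24 (SE 0.643), none of which passed.

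Serum starvation changed no member in polysomes, monosomes or their ratio past the threshold, in either fit. All genes called made up 0.00% without the block in each of the 3 comparisons, and with it 0.00% in polysomes and 0.0210% both in monosomes and for the ratio. In polysomes B lay above A for all 8 members after serum starvation. CCNB1 had 42 and 261 CPM in serum starved polysomes (A and B), against 37.1 and 128 in log phase polysomes. CDK1 had 64.6 and 329 in serum starved polysomes and 61.3 and 213 in log phase polysomes. The groups overlapped for all 8 members in polysomes. The log2 change with the block ranged over the members from 0.06 for BUB3 (SE 0.39) to 0.66 for CCNB1 (SE 0.447). In monosomes CCNB1, CDK1 and BUB3 lay above log phase without overlap. The share of all genes above log phase without overlap was counted for amino acid starved polysomes only, where it was 21.9%. The separation of CCNB1, CDK1 and BUB3 in monosomes therefore has no background to be read against. These same genes also lay above the same log phase libraries in amino acid starved monosomes, so the results are not independent. CDK1 had 135 and 153 CPM in serum starved monosomes, against 78.8 and 83.8 in log phase monosomes. Its log2 change was 0.74 (SE 0.506, adjusted p 0.969 with the block).

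Amino acid starvation was also set directly against serum starvation in polysomes. No member passed, beside 0.00% of genes without the block and 1.01% with it. All 8 members were above 0, with a median log2 difference of 0.84 with the block, beside -0.06 over all genes. This comparison and that with log phase share the amino acid starved libraries, so they are not independent. Without serum starvation polysome B, which leaves 1 library in that group, the log2 difference with the block was 2.22 for CCNB1 and 2.00 for CDK1.

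**Figure D4:**
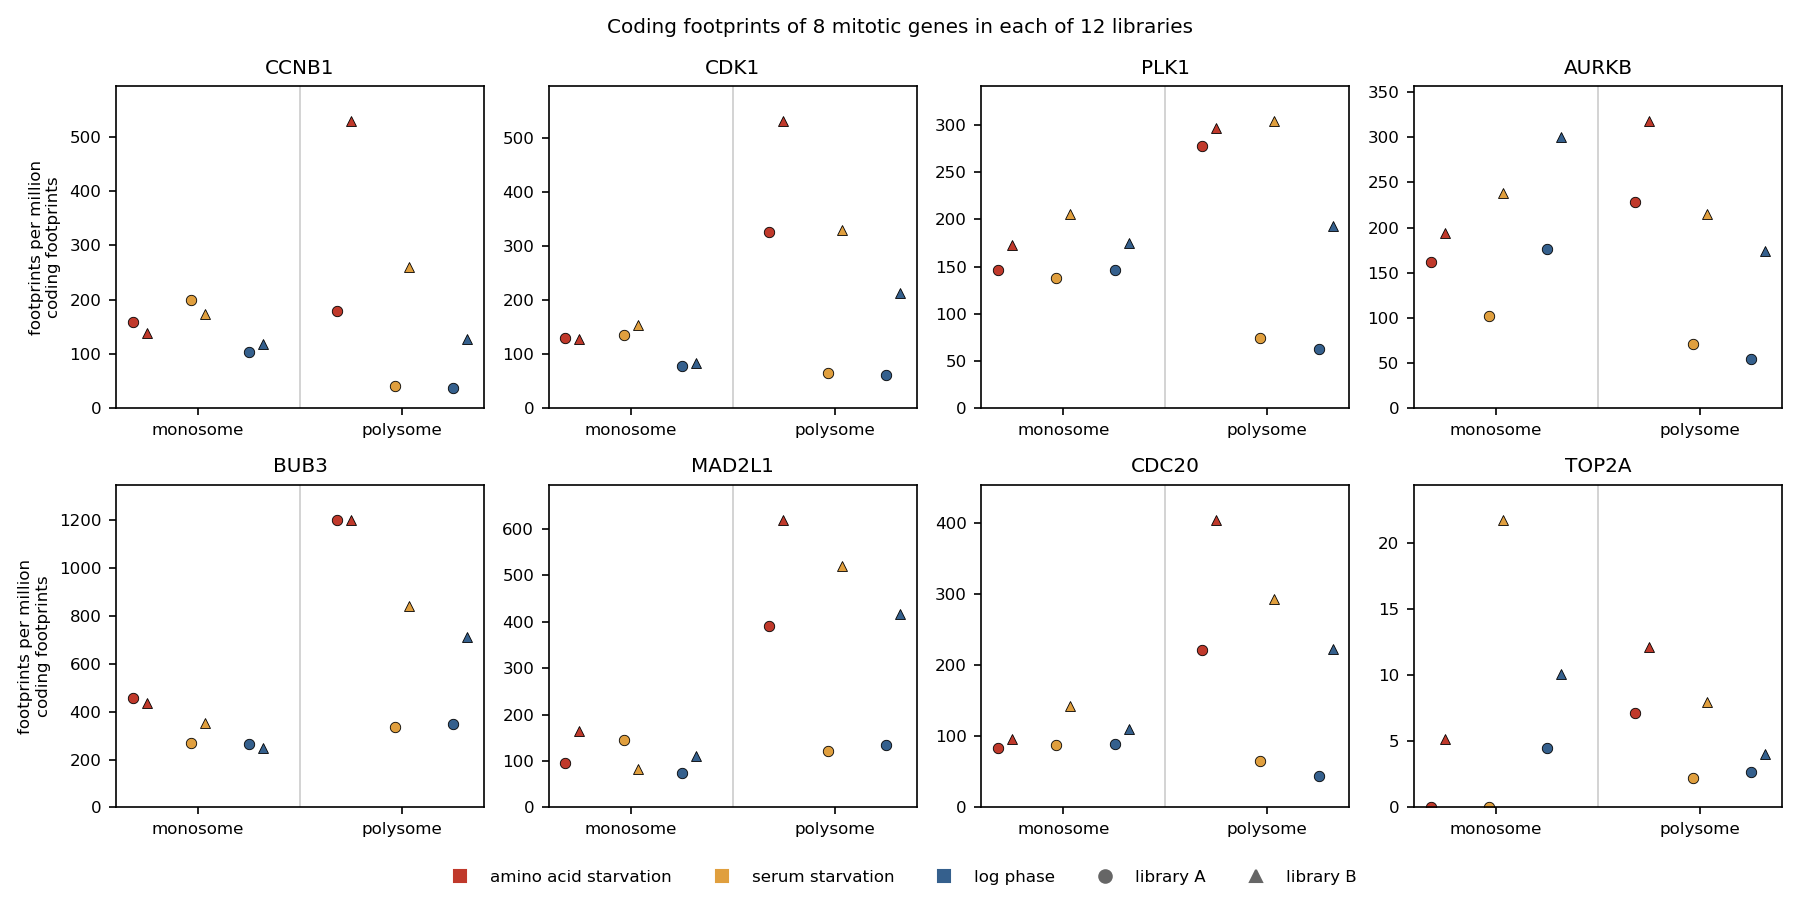
Level in CPM (y, linear from 0, a scale of its own in each panel) of 8 mitotic genes in monosomes (left side of each panel) and polysomes (right side), coloured by condition, with circles for library A and triangles for library B. In polysomes the A libraries of serum starvation and log phase lie lowest for all 8 genes, at 42 and 37.1 for CCNB1.

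Letter B lay above letter A in polysomes for nearly every member. Over the 7 members other than TOP2A, the B minus A difference (log2 of scaled CPM) had a median of 0.62 after amino acid starvation (-0.04 to 1.51), 1.52 after serum starvation (0.77 to 2.05) and 1.13 in log phase (0.51 to 1.77). In monosomes the medians were 0.08, 0.16 and 0.12 for the same conditions. The replicate block fits a shared letter difference to both fractions, while these medians differ between them. CCNB1 had the largest difference in starved polysomes and CDC20 in log phase polysomes, while BUB3 had the smallest in each of the 3.

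The fractions were then compared with each other. MAD2L1 and BUB3, the checkpoint proteins, were lower in monosomes than in polysomes in the mean of the 3 conditions. They were 2 of 8 members called without the block, beside 38.8% of all genes in either direction and 21.8% lower. With the block CDK1 and CDC20 were lower too, 4 of 8 beside 54.2% in either direction and 30.3% lower. With 8 members, neither count of lower genes is far from its background.

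MAD2L1 had a median of 102 CPM in monosomes (74.3 to 164) and 404 in polysomes (122 to 621). Its log2 difference was -1.62 (SE 0.366, adjusted p 0.0033) without the block and -1.58 (SE 0.27, adjusted p 1.53e-05) with it. BUB3 had a median of 310.3 in monosomes (249 to 455) and 775 in polysomes (334 to 1202), a log2 difference of -1.09 (SE 0.285, adjusted p 0.00799) without the block. BUB3 was lower in monosomes in 6 of 6 pairs of the same condition and letter, and MAD2L1 in 5 of 6.

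CDK1 had a median of 129.6 in monosomes (78.8 to 153) and 269 in polysomes (61.3 to 533). Its log2 difference was -0.81 (SE 0.265, adjusted p 0.0109) with the block and -0.90 (adjusted p 0.0577) without it. CDC20 had 93.1 in monosomes (83.9 to 143) and 223 in polysomes (44.9 to 405), and a log2 difference of -0.79 (SE 0.261, adjusted p 0.0116) with the block and -0.88 (adjusted p 0.0764) without it. Both were lower in monosomes in 4 of 6 pairs. The blocked calls of both were lost without amino acid starvation monosome B or serum starvation monosome B, that of CDK1 also without serum starvation polysome B and that of CDC20 also without log phase polysome B.

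CCNB1, PLK1 and AURKB did not pass in either fit. AURKB had a median of 185 in monosomes (102 to 300.1) and 195 in polysomes (54.7 to 318), and a log2 difference of 0.30 (SE 0.226, adjusted p 0.263) with the block. CCNB1 had 149 in monosomes (104 to 199) and 154 in polysomes (37.1 to 529.7), and PLK1 had 159 in monosomes (138 to 206) and 235 in polysomes (63.1 to 304). Their log2 differences with the block were 0.08 (SE 0.287) and -0.13 (SE 0.242). TOP2A did not pass (adjusted p 0.832 with the block). Over the 6 monosome and 6 polysome libraries the 2 fractions overlapped for every member. Whether the members differ from each other in this ratio was not tested.

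**Figure D5:**
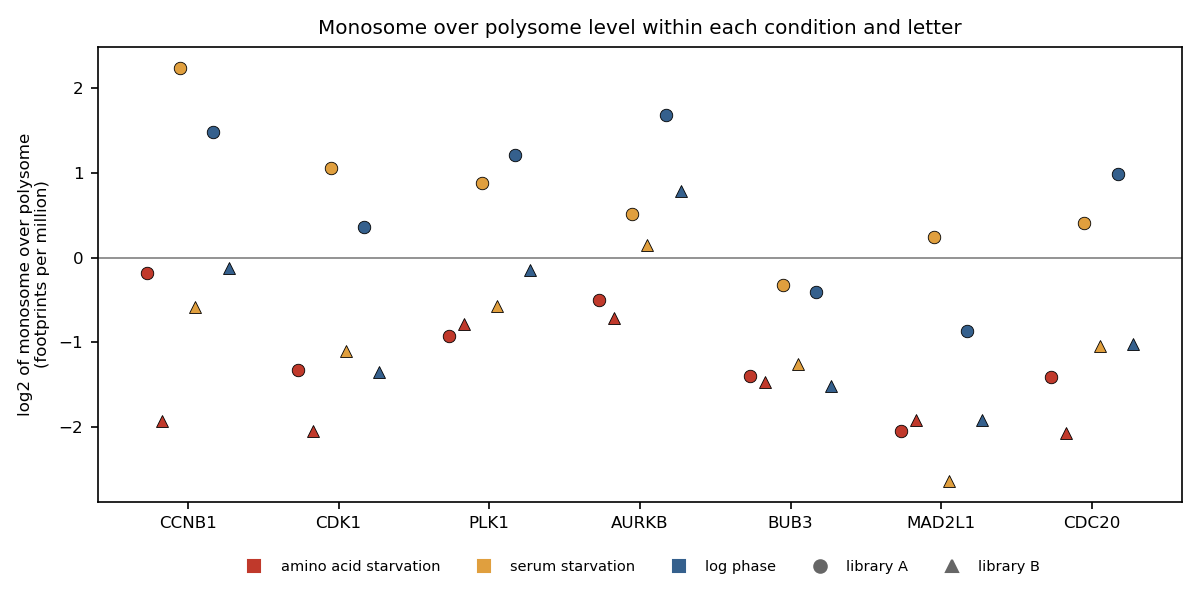
Log2 of the monosome over polysome level (y) for 7 mitotic genes (x), with 1 point for each condition and letter. All 6 points of BUB3 are below 0, and AURKB is below 0 after amino acid starvation only.

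Other cell cycle genes were counted from 6 lists. In amino acid starved polysomes 0 genes of any list passed without the block. With it 10.1% of all genes tested passed and 5.14% were higher, and the median log2 change over all genes was -0.08. In the lists, 3 of 10 tested genes of the chromosomal passengers, spindle motors and cytokinesis rose, with a list median of 1.28 (log2). They were NUSAP1, a spindle microtubule protein (1.77, adjusted p 0.00817), CKAP2, also of the spindle (1.50, adjusted p 0.0193), and TPX2, the activator of Aurora A (1.33, adjusted p 0.0268). NCAPG, a condensin subunit, rose by 1.59 (adjusted p 0.0105), alone of 8 tested in condensin, cohesin and chromosome structure (median 0.51). FBXO5, an inhibitor of the anaphase-promoting complex, rose by 1.33 (adjusted p 0.0393) and CDC26, a subunit of it, fell by 1.55 (adjusted p 0.0427), of 11 tested (median -0.14). MAD2L2 fell by 1.47 (adjusted p 0.0193), of 16 tested in spindle checkpoint and kinetochore (median -0.21). None of 8 other cyclins, CDKs and switch kinases passed (median -0.28), and none of 12 G1 and S phase genes did (median -0.17).

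Between monosomes and polysomes the same lists held changes in both directions without the block, where 38.8% of all genes passed and 21.8% were lower. In spindle checkpoint and kinetochore 4 were higher and 6 lower in monosomes of 16 tested. SKA3 (2.69) and CENPN (3.19), kinetochore proteins, and MAD2L2 (1.85) were higher. Of the 11 genes of the anaphase-promoting complex list 3 were higher, ANAPC11, its RING subunit (2.42), and ANAPC15 (1.98) among them, and 4 were lower, with PTTG1, the securin (-1.34), among them. Of the G1 and S phase genes 3 of 12 were lower and none higher. They were CDK6 (-2.65), CCND2 (-1.48) and CDK2 (-0.94). Of the passenger, motor and cytokinesis list 2 of 10 were higher, RACGAP1 (1.45) and NUSAP1 (1.50), and STMN1 was lower (-1.19). NCAPG (0.92) was the one call of 8 in condensin and cohesin, and there was none among 8 other cyclins and switch kinases. With the block, where 54.2% of all genes passed and 30.3% were lower, the counts were larger. They were 7 higher and 7 lower of 16 in spindle checkpoint and kinetochore, 4 and 4 of 11 in the anaphase-promoting complex list, and 5 higher and 1 lower of 10 in passengers, motors and cytokinesis. In condensin and cohesin 2 were higher and 1 lower of 8, and of the G1 and S phase genes 6 of 12 were lower. Among the other cyclins and switch kinases CKS1B and ARPP19 were higher (0.86 and 0.85) and CCNA2, the S and G2 phase cyclin, was lower (-0.75).

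The members' patterns over the 12 libraries were described by Pearson's r of log2 CPM, which also carries the fraction and the letter that libraries share. CDK1 and CDC20 were the most alike (r = 0.912), followed by PLK1 and CDC20 (0.871) and BUB3 and MAD2L1 (0.868). AURKB and MAD2L1 were the least alike (0.0977). CCNB1 and CDK1, which form one complex, had 0.812. Among all named genes tested, KPNA2, a nuclear import receptor, was the most like CCNB1 (0.972), DCAF13 the most like CDK1 (0.961), GOT2 the most like PLK1 (0.959) and HNRNPH1 the most like AURKB (0.951). NDUFA9 was the most like BUB3 (0.981), RPA2 the most like MAD2L1 (0.963), and PSMD3 the most like CDC20 (0.976).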

How the data were processed

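One deposited table gives, for 149028 ORFs, expected counts of ribosome footprints in 12 libraries, made by the authors with the ORF caller PRICE, per the title of the table. The authors' p-value of each ORF was deposited too and was not used to choose ORFs. The submitters' processing notes name Bowtie 1.0 and hg38 without a role. Column names give fraction, condition and a letter, and the labels do not match letters to replicate numbers.

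ORFs were kept so that each in-frame codon counted once (coding types first, then higher totals), summed per gene and rounded. Of 6375 genes with a coding ORF, 5894 were named by position in RefSeq. Genes passing filterByExpr (minimum count 10, minimum total 15) were TMM-scaled and tested by quasi-likelihood in edgeR 4.0.16 (R 4.3.3), all 6 groups in 1 model, two-sided, with Benjamini-Hochberg adjustment per comparison. Levels (CPM) are relative to coding footprints, without TMM.

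The letters were taken to pair the libraries, since the differences of B from A correlated across genes. Between polysome groups r was 0.770 to 0.866, but in pairs with a monosome group it was 0.161 to 0.422. The block still fits a single letter term to both fractions, and calls with the block rest on it. Whether that term suits the monosome libraries was not tested. Members, lists and tests were chosen with earlier results of these data known. All 10 members were named, with up to 3 genes per list by smallest p and, for members averaging 50 footprints, the genes most like them. The models were also run on simulated counts drawn from a fit with the block. A shared letter term is built into those counts, so they cannot test whether it holds. Alternatives were DESeq2 1.42.0, other scalings and filters, a fit of only the groups compared, ORFs of type CDS alone, and leaving out each library.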

Additional observations from a re-analysis of the deposited data

Results flagged for a closer look

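AURKA and CCNB2 had signal outside the coding ORFs that the comparisons used. AURKA had 785.8 footprints on kept ORFs of other types over the 12 libraries, and CCNB2 had 748, while neither gene had a coding-type ORF under its name. Groups of 2 libraries are too small for a check of outlying libraries, and no interaction of a member passed the threshold in the edgeR fits.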

How the results depend on the processing

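The count of members called did not move under the alternatives not given here, apart from 5 members in place of 4 for amino acid starvation in polysomes with the block and library-size scaling. Without the block, monosome over polysome called 2 members, 4 with no filter, 4 with the replicate block, and 2 to 4 with one library left out, and 1849 genes, 338 with CDS-type ORFs alone. Amino acid starvation in polysomes called 0 members and, with the block, 4, and 0 genes, 75 in DESeq2, 480 with the block and 0 to 25 with one library left out (411 genes had an unadjusted p under 0.05). In monosomes it called 0 genes, 30 in DESeq2, 148 with the compared groups alone and 49 with the block. Its change of ratio called 0 genes, 29 in DESeq2 and 55 with the block, and amino acid over serum starvation 0, 38 in DESeq2, 48 with the block and 0 to 10 with one library left out. Serum starvation called 0, and 1 gene with the block in monosomes and 1 for the ratio.

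With the block, monosome over polysome called 4 members, 2 in DESeq2 and 2 to 4 with one library left out, and 2585 genes, 448 with CDS-type ORFs alone. Amino acid starvation in polysomes called 0 to 5 members and 12 to 797 genes with one library left out, and 83 with CDS-type ORFs alone. In monosomes it called 49 genes, 186 in DESeq2, 13 with CDS-type ORFs alone and 0 to 142 with one library left out. Its change of ratio called 1 member in DESeq2, and 55 genes, 180 in DESeq2, 7 with CDS-type ORFs alone, 36 with library-size scaling and 0 to 155 with one library left out. Amino acid over serum starvation called 0 to 2 members with one library left out, and 48 genes, 186 in DESeq2, 19 with CDS-type ORFs alone, 11 with library-size scaling and 0 to 555 with one library left out. For serum starvation in polysomes 0 to 3 genes were called with one library left out. In monosomes the 1 gene gave 0 in DESeq2, with CDS-type ORFs alone and with library-size scaling, and 0 to 10 with one library left out, and for the ratio 0 with CDS-type ORFs alone and with library-size scaling, and 0 to 7. The causes were not tested. CDS-type ORFs alone leave 800 genes and no member. The level per RefSeq protein length was not run, and with CDS-type ORFs alone it gives no value.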
